A study of Mus musculus with 18 samples.

Results

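The Reg family of C-type lectins was followed in epithelial cells sorted from the ileum of pregnant, pseudopregnant and virgin female mice. The 6 members were Reg1, Reg3a, Reg3b, Reg3d, Reg3g and Reg4, found by their gene symbols among the 47729 genes of each count table, and all 6 passed the filter on low counts that left 14675 genes for testing. RNA was sequenced in 18 libraries, with 6 from pregnant mice, 6 from pseudopregnant mice, which are in the hormonal state that follows a sterile mating or its equivalent, and 6 from virgin mice. The chow is given in the same words for all groups, as RM3 while breeding and RM1 otherwise, and no genetic change or drug is given for any of them. By that wording the chow may differ between the groups, and such a difference cannot be told apart from reproductive state. The strain, the age, the day of pregnancy, the way pseudopregnancy was brought about and the sorting markers are not given in the labels. Nothing in the labels says that replicates came from separate animals, so p-values measure the spread between these libraries, which may in part be technical.

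Reg proteins are small secreted proteins built around a single carbohydrate recognition domain. In the small intestine Reg3b and Reg3g are antibacterial lectins of the enterocytes and Paneth cells, known for holding bacteria away from the epithelial surface, and their genes are switched on by microbial signals and by the cytokine IL-22, which acts through its receptor and the transcription factor STAT3. Reg1 is known from the pancreas and from regenerating tissue, and Reg4 is known from secretory cells of the gut. EXTL3, a membrane protein, has been described as a receptor for several Reg proteins.

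With the paralog Reg2, 5 members lie together on chromosome 6 of GRCm38, in the GENCODE M21 annotation. Reg3b (ENSMUSG00000071356) spans chr6:78370657-78373466 on the plus strand, Reg3d (ENSMUSG00000068341) chr6:78375874-78378865 on the minus strand and Reg3a (ENSMUSG00000079516) chr6:78380709-78383827 on the plus strand. Reg1 (ENSMUSG00000059654) spans chr6:78422711-78428667 on the plus strand and Reg3g (ENSMUSG00000030017) chr6:78466269-78468872 on the minus strand. Reg4 (ENSMUSG00000027876) lies apart, at chr3:98222156-98236748 on the plus strand. All are protein-coding, with coding sequences of 474 to 528 bases. The coding sequences of Reg3b and Reg3g were 76.4% identical over 525 aligned bases, and the longest run of bases shared by their transcripts was 35. No stretch of 50 bases was shared by any pair among the members and Reg2.

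The sequence just before the start of 4 members is shown because Reg3b and Reg3g, which varied together between libraries as described further on, can be set beside Reg3a, their close relative that did not, and Reg4. Each line gives bases 150 to 22 before the RefSeq transcription start (GRCm38.p6), read 5′ to 3′ on the strand of the gene, with matches to any of 3 motifs in capitals. The motifs were TTCNNNGAA, the palindromic core bound by STAT factors, TATAAA, the TATA box, and CTGGGA, an element known from genes that respond to IL-6, the last pair searched on both strands.
Reg3b, chr6:78370735-78370863, plus strand: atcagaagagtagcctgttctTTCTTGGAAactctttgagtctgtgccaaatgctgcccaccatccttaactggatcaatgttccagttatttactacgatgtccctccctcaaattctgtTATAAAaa
Reg3g, chr6:78468896-78469024, minus strand: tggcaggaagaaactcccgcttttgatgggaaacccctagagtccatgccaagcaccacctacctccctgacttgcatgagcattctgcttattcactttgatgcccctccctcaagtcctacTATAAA
Reg3a, chr6:78380559-78380687, plus strand: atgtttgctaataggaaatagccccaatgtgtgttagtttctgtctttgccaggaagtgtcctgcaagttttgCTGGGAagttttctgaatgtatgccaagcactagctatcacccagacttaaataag
Reg4, chr3:98222006-98222134, plus strand: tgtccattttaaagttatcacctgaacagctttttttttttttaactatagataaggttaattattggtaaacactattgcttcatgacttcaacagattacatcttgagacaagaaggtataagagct

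Over the full 250 bases before the start, Reg3b held the STAT core 129 to 121 bases before its start and a TATA box 29 to 24 bases before it. Reg3g held a TATA box at 27 to 22 bases, a reversed copy of the same letters at 161 to 156 bases and CTGGGA at 248 to 243 bases, and no STAT core. Reg3a held CTGGGA at 77 to 72 bases and neither of the other motifs, and Reg4 held none of the 3. Among the members not printed, Reg3d held a STAT core 238 to 230 bases before its start, overlapping a reversed CTGGGA. Reg1 held a TATA box and CTGGGA on either strand. The STAT core was present in 7.18%, TATAAA in 13.0% and CTGGGA in 26.8% of the 27025 promoters of that length. The windows of Reg3b and Reg3g were 70.0% identical over 247 aligned bases. That of Reg3a was 69.9% identical to Reg3b over 196 and 71.9% identical to Reg3g over 199 aligned bases. These percentages leave out bases set against a gap, and the windows of Reg3b and Reg3g aligned over more of their length. The percentages alone therefore do not rank the likeness of these pairs. GENCODE places the first exon of one Reg3b transcript inside its upstream window. The Reg1 window, chr6:78425733-78425982, lies inside the GENCODE span of Reg1 given above, so it is upstream of the RefSeq start only.

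Levels of the 6 genes spanned several orders of magnitude. Counts scaled by TMM to counts per M reads counted (CPM) were divided by the length of the principal transcript in kilobases for this comparison. Over all 18 libraries Reg3b averaged 9220 ± 6320 CPM per kb and Reg3g 3470 ± 3020 (SD, n = 18). By CPM, not divided by length, Reg3b ranked 11 and Reg3g 34 among all genes. Reg3a averaged 224 ± 67.8 CPM per kb and Reg4 157 ± 86.1 (SD, n = 18). Reg1 averaged 8.23 ± 3.85 and Reg3d 0.805 ± 0.327 CPM per kb (SD, n = 18). Each gene in this order exceeded the next in 18 of 18 libraries except Reg3a over Reg4, which held in 13 of 18: in 4 of 6 pregnant, 6 of 6 pseudopregnant and 3 of 6 virgin libraries. The order of Reg3a and Reg4 thus varied between libraries, and the difference between these genes was not tested. Reg2, the close paralog of Reg1 with 82.5% coding identity, had 0 to 5 reads per library and was too low to test.

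The family took a sizeable and variable share of all reads. It held 0.826% ± 0.386 of the counts in pregnant libraries, 1.47% ± 1.05 in pseudopregnant libraries and 0.739% ± 0.237 in virgin libraries (SD, n = 6 each). The share ran from 0.325 to 1.28% in pregnant, from 0.392 to 3.34% in pseudopregnant and from 0.526 to 1.11% in virgin libraries, so that the groups overlapped. Pseudopregnant replicate 4 held the highest share, and the pseudopregnant mean without it was 1.1% ± 0.579 (SD, n = 5). Reg3b and Reg3g together made up 89.3 to 99.3% of the family's reads in a library.

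Depth was 24.9 to 37.3 M counts per library with a median of 31.5 M. The epithelial adhesion gene Epcam had 1640 to 3590 CPM and the pan-leukocyte gene Ptprc 0.198 to 0.638 CPM over the 18 libraries. Pseudopregnant replicate 4 stood apart in a set of inducible defence genes described further on, and the values without it are given beside the main results that use it. No gene passed an adjusted p of 0.05 in any of the 3 comparisons (edgeR's quasi-likelihood test with Benjamini-Hochberg adjustment over all genes tested, two-sided, percent called 0). At an unadjusted p under 0.05, 3.68% of genes were called for pregnant over virgin libraries (2.02% higher and 1.66% lower). The share was 9.37% for pseudopregnant over virgin libraries (7.36% higher and 2.01% lower) and 2.35% for pregnant over pseudopregnant libraries (0.763% higher and 1.59% lower). Groups did not overlap for 0.0681% of genes in each comparison with virgin libraries and for 0.0273% between pregnant and pseudopregnant libraries. With limma-voom the same counts past the adjusted threshold were 0, 0 and 0, and with DESeq2 they were 5, 0 and 0. None of the differences of the Reg genes given here is therefore a call over all genes. The 3 comparisons share libraries and are not independent of each other.

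**Figure D1:**
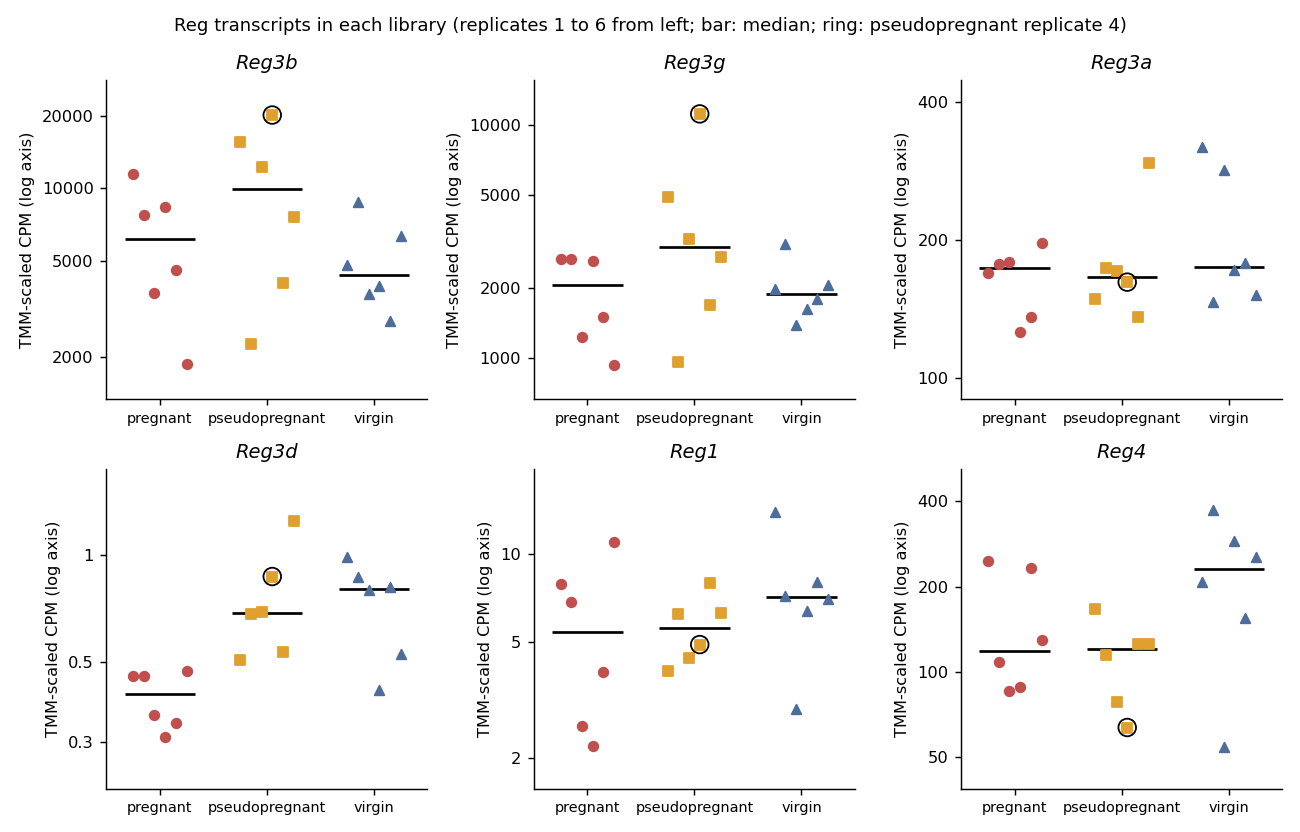
TMM-scaled CPM (log axis) of the 6 Reg genes in each library, in pregnant, pseudopregnant and virgin groups of 6, with a bar at the median and a ring round pseudopregnant replicate 4. Reg3d sits lower in all 6 pregnant libraries than in any pseudopregnant one, while the groups overlap for the other 5 genes.

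Reg3b, the antibacterial lectin of highest level, had 1870, 6170 and 11500 CPM as the lowest, median and highest value in pregnant libraries. The same values were 2270, 9960 and 20100 CPM in pseudopregnant libraries and 2810, 4370 and 8750 CPM in virgin libraries. Pregnant and pseudopregnant libraries thus held both the lowest and the highest values, and virgin libraries lay inside their range. The means were 6290 ± 3550 CPM in pregnant, 10300 ± 6910 CPM in pseudopregnant and 5050 ± 2180 CPM in virgin libraries (SD, n = 6 each). The log2 fold change of pregnant over virgin libraries was 0.32 (SE 0.48, edgeR adjusted p = 0.913), with 4 of 6 pregnant libraries above the virgin median. That of pseudopregnant over virgin libraries was 1.03 (SE 0.49, unadjusted p = 0.0485, edgeR adjusted p = 0.515), and 4 of 6 pseudopregnant libraries lay above the virgin median. Without pseudopregnant replicate 4 the value for pseudopregnant over virgin libraries was 0.73 (SE 0.49, unadjusted p = 0.153, edgeR).

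Reg3g, the lectin with activity against Gram-positive bacteria, had 934, 2070 and 2660 CPM as the lowest, median and highest value in pregnant libraries. It had 968, 2980 and 11100 CPM in pseudopregnant libraries and 1390, 1880 and 3080 CPM in virgin libraries. The value of 11100 CPM came from pseudopregnant replicate 4, and the next highest library of the 18 had 4890 CPM. Reg3g averaged 1940 ± 797 CPM in pregnant, 4110 ± 3700 CPM in pseudopregnant and 1990 ± 586 CPM in virgin libraries (SD, n = 6 each). For pregnant over virgin libraries the log2 fold change was -0.03 (SE 0.44, edgeR adjusted p = 0.989). It was 1.05 (SE 0.44, unadjusted p = 0.0286, edgeR adjusted p = 0.515) for pseudopregnant over virgin libraries and -1.08 (SE 0.44, unadjusted p = 0.0243, edgeR adjusted p = 0.92) for pregnant over pseudopregnant libraries. Without pseudopregnant replicate 4 these last 2 values were 0.44 (SE 0.36, unadjusted p = 0.233) and -0.48 (SE 0.36, unadjusted p = 0.2) in edgeR, so a large part of the difference rested on 1 library.

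Reg3a, another member of the Reg3 subfamily, differed least between libraries. It had 126, 174 and 197 CPM as the lowest, median and highest value in pregnant libraries, 136, 166 and 294 CPM in pseudopregnant libraries and 147, 175 and 319 CPM in virgin libraries. The medians were close in all 3 groups, and the highest values came from virgin replicate 1 and pseudopregnant replicate 6. Over the 18 libraries the highest value was 2.52 times the lowest, against 10.8 times for Reg3b and 11.9 times for Reg3g. Its log2 fold change was -0.34 (SE 0.21, edgeR adjusted p = 0.891) for pregnant over virgin and -0.21 (SE 0.21, edgeR adjusted p = 0.63) for pseudopregnant over virgin libraries.

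Reg3d, a little studied member, was near the limit of detection, with 10 to 17 reads in pregnant, 14 to 37 in pseudopregnant and 13 to 32 in virgin libraries. Its lowest, median and highest values were 0.31, 0.407 and 0.472 CPM in pregnant libraries, 0.508, 0.686 and 1.24 CPM in pseudopregnant libraries and 0.419, 0.804 and 0.984 CPM in virgin libraries. All 6 pregnant libraries lay below all 6 pseudopregnant ones, which 0.0273% of the genes tested showed in that comparison in either direction, and below the virgin median. Summed over the group, Reg3d had 73 reads in pregnant, 143 in pseudopregnant and 136 in virgin libraries. These sums gave 0.388 CPM (exact 95% Poisson interval 0.304 to 0.488, counting error only) in pregnant, 0.771 CPM (0.65 to 0.908) in pseudopregnant and 0.733 CPM (0.615 to 0.867) in virgin libraries. The log2 fold change was -0.88 (SE 0.27, unadjusted p = 0.00394, edgeR adjusted p = 0.891) for pregnant over virgin libraries, which placed Reg3d 29 by p among the 14675 genes. For pregnant over pseudopregnant libraries it was -0.92 (SE 0.27, unadjusted p = 0.00264, edgeR adjusted p = 0.92), which placed it 6. Pseudopregnant and virgin libraries had a log2 fold change of 0.04 (SE 0.25, edgeR adjusted p = 0.939). Leaving out each library in turn moved the value for pregnant over virgin libraries between -1.0 and -0.77 and that for pregnant over pseudopregnant libraries between -1.01 and -0.73.

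Reg1, known as a product of pancreatic acinar cells and regenerating tissue, had 2.2, 5.39 and 11 CPM as the lowest, median and highest value in pregnant libraries. It had 3.96, 5.56 and 7.93 CPM in pseudopregnant libraries and 2.95, 7.1 and 13.9 CPM in virgin libraries, and all groups overlapped. Its log2 fold change was -0.40 (SE 0.36, edgeR adjusted p = 0.891) for pregnant over virgin and -0.43 (SE 0.36, edgeR adjusted p = 0.57) for pseudopregnant over virgin libraries. Of 12 pancreatic acinar markers the proteases and elastases Cpb1, Prss2, Cela2a and Cela3b were at 0 in all 18 libraries, and Cpa1 reached at most 0.0693 CPM. The summed level of the 12 markers was 33.5 to 78.1 CPM in pregnant, 30.5 to 68.0 CPM in pseudopregnant and 15.4 to 100 CPM in virgin libraries, most of it from the colipase gene Clps, which averaged 48.1 ± 19.9 CPM in pregnant, 45.9 ± 13.2 CPM in pseudopregnant and 55.6 ± 27 CPM in virgin libraries (SD, n = 6 each).

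Reg4, the member of secretory cells, had 85.4, 118 and 246 CPM as the lowest, median and highest value in pregnant libraries. It had 63.6, 120 and 167 CPM in pseudopregnant libraries and 54.1, 231 and 371 CPM in virgin libraries. Virgin libraries held both extremes, with 371 CPM in replicate 2 and 54.1 CPM in replicate 3, and the other 4 virgin libraries had 155 to 290 CPM. Reg4 averaged 148 ± 72.5 CPM in pregnant, 112 ± 37.1 CPM in pseudopregnant and 222 ± 110 CPM in virgin libraries (SD, n = 6 each). The log2 fold change of pseudopregnant over virgin libraries was -0.98 (SE 0.37, unadjusted p = 0.0145, edgeR adjusted p = 0.515), and all 6 pseudopregnant libraries lay below the virgin median. For pregnant over virgin libraries it was -0.58 (SE 0.36, unadjusted p = 0.125, edgeR adjusted p = 0.891). Leaving out virgin replicate 3 gave -1.19 (unadjusted p = 0.0011, edgeR adjusted p = 0.27) for pseudopregnant over virgin libraries, and leaving out virgin replicate 2 gave -0.79. It was -0.86 (SE 0.38, unadjusted p = 0.0353, edgeR adjusted p = 0.785) without pseudopregnant replicate 4. Beside this, 11 of 12 Paneth cell markers and 12 of 14 goblet cell markers had a negative log2 fold change for pseudopregnant over virgin libraries, as had 16 of 18 enteroendocrine and 8 of 11 tuft cell markers. For pregnant over virgin libraries 10 of 12 Paneth, 14 of 14 goblet, 18 of 18 enteroendocrine and 9 of 11 tuft markers were negative. Other lists shifted too. Of 18 proliferation genes, 9 were negative for pseudopregnant and 18 for pregnant over virgin libraries. Of 19 absorptive enterocyte markers, 14 and 17 were positive in the same comparisons. Genes of a list can vary together, so these counts are not that many separate observations. Over all genes tested, 50.6% had a value above 0 for pseudopregnant and 48.5% for pregnant over virgin libraries. The medians of the Paneth and goblet lists were -0.43 and -0.21 for pseudopregnant over virgin libraries, against 0.004 over all genes tested. Without pseudopregnant replicate 4 they were -0.39 and -0.19. No member of either list passed an adjusted p of 0.05 (edgeR) or had an unadjusted p under 0.05 in that comparison. For pregnant over virgin libraries the medians were -0.1 and -0.29, against -0.008, with 1 goblet marker at an unadjusted p under 0.05 (edgeR). The summed Paneth level was 11500 to 22500 CPM (median 15800) in pseudopregnant and 4010 to 39800 CPM (median 21900) in virgin libraries. The summed goblet level was 5980 to 11200 CPM (median 7290) in pseudopregnant and 5310 to 15400 CPM (median 6880) in virgin libraries. The part of these markers in the Reg4 difference was not tested, and in RNA from whole sorted samples fewer cells of a type cannot be told apart from less RNA per cell.

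**Figure D2:**
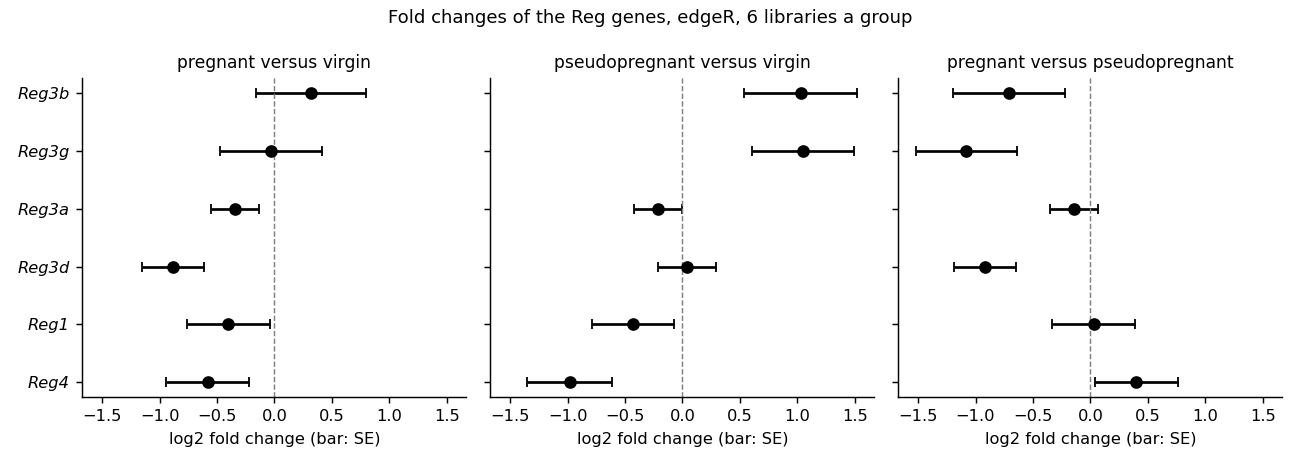
Log2 fold change of each Reg gene with its standard error (edgeR, 6 libraries a group) in the 3 comparisons. Reg3b and Reg3g lie near 1 and Reg4 near -1 for pseudopregnant over virgin libraries, and Reg3d lies between -0.92 and -0.88 for pregnant libraries against either other group.

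Read against the background, 3 of the 6 members had an unadjusted p under 0.05 for pseudopregnant over virgin libraries, where 9.37% of all genes did (Reg3b and Reg3g higher, Reg4 lower). Reg3b and Reg3g varied together between libraries, so these are not separate pieces of evidence. The count was 1 of 6 for pregnant over virgin libraries (Reg3d, background 3.68%) and 2 of 6 for pregnant over pseudopregnant libraries (Reg3d and Reg3g, background 2.35%). Without pseudopregnant replicate 4 the count was 1 of 6 for pseudopregnant over virgin libraries (Reg4, background 4.3%) and 1 of 6 for pregnant over pseudopregnant libraries (Reg3d, background 0.813%). A log2 fold change above 0 was seen for 1 of 6 members in pregnant over virgin libraries (48.5% of all genes), for 3 of 6 in pseudopregnant over virgin libraries (50.6%) and for 2 of 6 in pregnant over pseudopregnant libraries (48.4%). The median log2 fold change over the members was -0.37 for pregnant over virgin, -0.085 for pseudopregnant over virgin and -0.425 for pregnant over pseudopregnant libraries, against -0.008, 0.004 and -0.008 over all genes tested.

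Most members varied strongly between libraries of 1 group. The SD of log2 CPM within groups was 0.95 for Reg3b, more than that of 99.2% of the 500 tested genes nearest to it in abundance, whose median was 0.38. It was 0.83 for Reg3g (above 94.2% of such genes), 0.75 for Reg4 (98.4%), 0.71 for Reg1 (92.8%) and 0.38 for Reg3a (74.8%). As Reg3b ranked 11 and Reg3g 34 among all genes by CPM, most of the genes compared with them were less abundant. Reg3d, with 0.38, varied more than 11% of genes of its low abundance. This spread set the standard errors of 0.44 to 0.49 for Reg3b and Reg3g, against a median of 0.202 over all genes.

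Reg3b and Reg3g moved together from library to library. Across the 18 libraries their log2 CPM had Pearson's r of 0.93 and Spearman's rho of 0.94, each with a permutation p of 1e-05, the smallest that 100000 permutations can give (adjusted p = 0.00015 over 15 pairs). Without the 2 libraries farthest from the median, or with each value centred on the mean of its group, r was 0.93 in both cases. Within the groups r was 0.97 over the 6 pregnant, 0.95 over the 6 pseudopregnant and 0.84 over the 6 virgin libraries. The count ratio of Reg3b to Reg3g stayed between 1.57 and 4.33, and averaged 3.07 ± 0.746 in pregnant, 2.72 ± 0.697 in pseudopregnant and 2.5 ± 0.523 in virgin libraries (SD, n = 6 each). Both genes were highest in pseudopregnant replicate 4 and lowest in pregnant replicate 6. Reg3a did not share this pattern, with r of -0.23 to Reg3b and -0.19 to Reg3g (permutation, adjusted p = 0.67 and 0.68). Reg3a and Reg3d had r of 0.64 (permutation, adjusted p = 0.027) but rho of 0.40 (permutation, adjusted p = 0.34), and r of 0.38 without virgin replicate 1 and pseudopregnant replicate 6. Within groups their r was 0.83 over the 6 pregnant, 0.90 over the 6 pseudopregnant and 0.51 over the 6 virgin libraries. The other 13 pairs had no adjusted p under 0.05 by r or by rho.

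Other defence genes of the epithelium followed Reg3b and Reg3g. A list of 23 genes known to be induced with them was used, of which 17 passed the low-count filter. The choice of the list was made with earlier results of these data known, so its p-values may not be independent of that choice. The list's score was the mean of their log2 CPM after centring each gene. Reg3b had r of 0.78 and rho of 0.78 with this score over the 18 libraries (permutation, adjusted p = 0.00084 and 0.0034 over 42 relations), and r of 0.73 without the 2 farthest libraries and 0.74 without pseudopregnant replicate 4. Within groups, its r was 0.80 in pregnant, 0.77 in pseudopregnant and 0.66 in virgin libraries. Reg3g had r of 0.85 and rho of 0.74 (permutation, adjusted p = 0.00084 and 0.0067). For Reg3g r was 0.70 without pseudopregnant replicate 4 (permutation, adjusted p = 0.014) and 0.61 without pseudopregnant replicates 1 and 4 (permutation, adjusted p = 0.11), so its relation no longer held past the threshold. Reg3a had a negative rho of -0.73 (permutation, adjusted p = 0.0067) but r of -0.43 (permutation, adjusted p = 0.27).

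**Figure D3:**
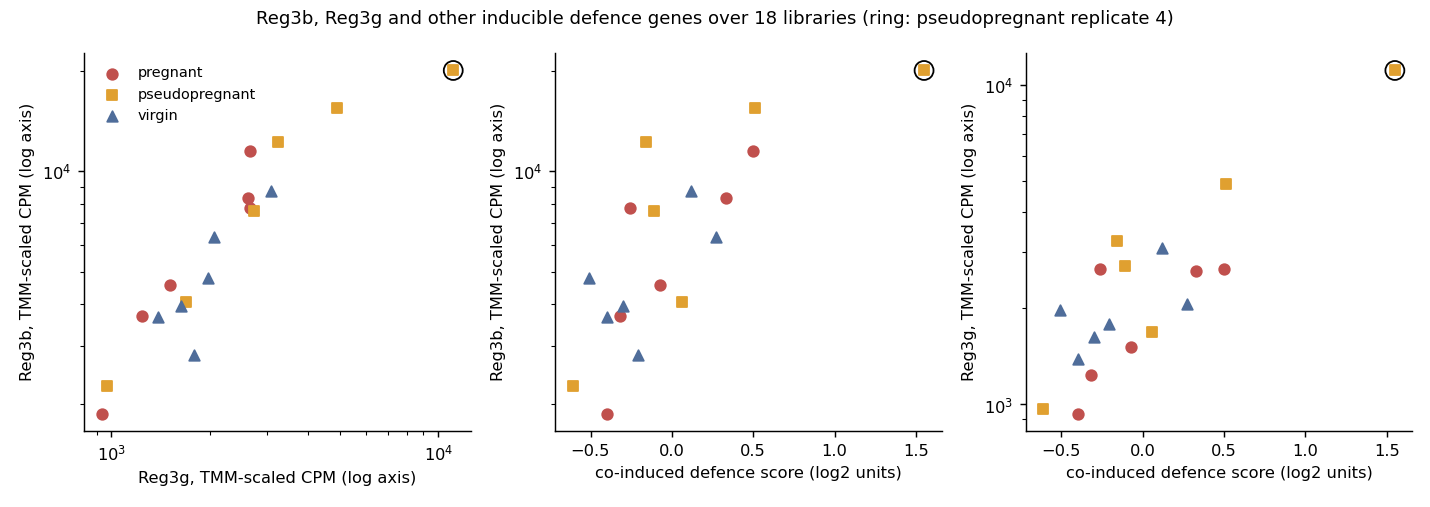
Left, Reg3b against Reg3g in each of 18 libraries (TMM-scaled CPM, log axes). Centre and right, Reg3b and Reg3g against the score of 17 co-induced defence genes (mean centred log2 CPM), with pseudopregnant replicate 4 ringed at the upper right of each panel.

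By likeness over the 18 libraries the gene nearest to both Reg3b and Reg3g among 11119 genes, members left aside, was Saa1, which encodes an acute-phase serum amyloid A protein, with r of 0.91 to Reg3b and 0.92 to Reg3g. Fam3b, a secreted cytokine-like protein gene, with r of 0.84 and Atp6ap1, an accessory subunit gene of the proton pump of vesicles, with r of 0.83 came next for Reg3b. Ociad2 with r of 0.82 and Tat, which encodes tyrosine aminotransferase, with r of 0.80 came next for Reg3g. These values are descriptions of genes picked for their likeness.

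Pseudopregnant replicate 4 was extreme in this set beyond the Reg genes. Saa1 had 243 CPM there, against 0.854, 4.34 and 52.7 CPM as the lowest, median and highest value in the other 17 libraries. Fut2, the fucosyltransferase of the epithelial surface, had 61.3 CPM there and at most 2.3 CPM elsewhere. Duox2, the oxidase that makes hydrogen peroxide at the epithelial surface, had 657 CPM there and at most 267 CPM elsewhere. Socs3, a feedback inhibitor induced by STAT3, had 136 CPM there and at most 51.7 CPM elsewhere. Of the co-induced defence genes tested, 9 of 17 (52.9%) were highest in this library, against 8.55% of all genes tested and 2 of 16 genes (12.5%) of IL-22 and STAT3 signalling.

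The co-induced defence list held no gene past the adjusted threshold in any comparison (edgeR). For pseudopregnant over virgin libraries 6 of 17 were higher at an unadjusted p under 0.05 and none lower, where 7.36% of all genes were higher, and the median log2 fold change was 0.29. Without pseudopregnant replicate 4 that count was 1 of 17, the share of all genes that were higher 3.47% and the median -0.02. Dmbt1, a mucosal scavenger receptor-like glycoprotein, averaged 1380 ± 1420 CPM in pseudopregnant and 441 ± 112 CPM in virgin libraries (SD, n = 6 each). Its log2 fold change was 1.65 (SE 0.48, edgeR adjusted p = 0.515), and 0.93 (SE 0.37, edgeR adjusted p = 0.785) without that library. The log2 fold change of Fut2 was 0.64 (SE 0.40) without that library and 3.69 (SE 0.99) with it, and that of Saa1 was 1.63 (SE 0.83) without it and 3.41 (SE 1.05) with it. For pregnant over virgin libraries no gene of the list had an unadjusted p under 0.05 and the median was 0.12.

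Genes of the pathway that controls Reg3 expression were measured as well. Il22 itself, made by lymphocytes, had no read in any of the 18 libraries. Its receptor gene Il22ra1 averaged 22.8 ± 12.9 CPM in pregnant, 28.3 ± 19.3 CPM in pseudopregnant and 14.4 ± 8.94 CPM in virgin libraries (SD, n = 6 each). Log2 fold changes were 0.66 (SE 0.54, edgeR adjusted p = 0.891) for pregnant over virgin and 0.98 (SE 0.54, edgeR adjusted p = 0.515) for pseudopregnant over virgin libraries, or 0.90 (SE 0.57) without pseudopregnant replicate 4. Il10rb, the partner chain of the receptor, had log2 fold changes of 0.11 (SE 0.13) and -0.05 (SE 0.13) in the same comparisons. Stat3 averaged 103 ± 18.2 CPM in pregnant, 106 ± 19.9 CPM in pseudopregnant and 84.3 ± 21.7 CPM in virgin libraries (SD, n = 6 each), with 6 of 6 pregnant and 6 of 6 pseudopregnant libraries above the virgin median. Its log2 fold change was 0.29 (SE 0.16, edgeR adjusted p = 0.891) for pregnant over virgin and 0.33 (SE 0.16, edgeR adjusted p = 0.515) for pseudopregnant over virgin libraries, or 0.23 (SE 0.16) without pseudopregnant replicate 4. Of the 16 genes of IL-22 and STAT3 signalling, 4 were higher at an unadjusted p under 0.05 for pseudopregnant over virgin libraries, namely Jak1, Il6st, Socs3 and Stat3, where 7.36% of all genes were higher. Without pseudopregnant replicate 4 the count was 0, and 3.47% of all genes were higher. The median of the list was 0.05, and it was 0.13 for pregnant over virgin libraries, where no gene had an unadjusted p under 0.05.

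Of the receptor genes, Extl3 averaged 12.3 ± 2.13 CPM in pregnant, 15.9 ± 5.75 CPM in pseudopregnant and 12.3 ± 1.69 CPM in virgin libraries (SD, n = 6 each). Its log2 fold change was 0.01 (SE 0.20) for pregnant over virgin and 0.37 (SE 0.20) for pseudopregnant over virgin libraries, with edgeR adjusted p of 0.994 and 0.515. Egfr, the epidermal growth factor receptor, averaged 12.3 ± 3.47 CPM in pregnant, 16.4 ± 5.14 CPM in pseudopregnant and 11.3 ± 2.37 CPM in virgin libraries (SD, n = 6 each). For pseudopregnant over virgin libraries its log2 fold change was 0.53 (SE 0.21, unadjusted p = 0.0194, edgeR adjusted p = 0.515), and 0.48 (SE 0.22, unadjusted p = 0.0444) without pseudopregnant replicate 4. Il6st, the signal-transducing chain shared by IL-6 type receptors, had 0.63 (SE 0.29, unadjusted p = 0.0434, edgeR adjusted p = 0.515) in that comparison, and 0.47 (SE 0.29) without pseudopregnant replicate 4.

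Reg4 followed the Paneth and goblet cell markers. Its r was 0.81 and its rho 0.83 with the score of 12 Paneth cell markers (permutation, adjusted p = 0.00084 and 0.0025), and r was 0.74 without virgin replicates 2 and 3. With the score of 14 goblet cell markers r was 0.78 and rho 0.79 (permutation, adjusted p = 0.00084 and 0.0034), and r was 0.65 without those libraries. Within groups, r with the Paneth score was 0.93 in pregnant, 0.59 in pseudopregnant and 0.92 in virgin libraries, and r with the goblet score was 0.80, 0.52 and 0.91 in the same order. With the absorptive enterocyte score r was -0.66 (permutation, adjusted p = 0.023) and -0.49 without virgin replicates 2 and 3 (permutation, adjusted p = 0.29), so that relation no longer passed. With the enteroendocrine score r was 0.37 (permutation, adjusted p = 0.36), and with the co-induced defence score it was -0.07 (permutation, adjusted p = 0.9). The 3 genes most like Reg4 over the libraries were Csrp2, which encodes a LIM-domain protein, with r of 0.94, Foxa3, a forkhead transcription factor gene, with r of 0.92 and Krt18, a keratin gene of simple epithelia, with r of 0.91.

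**Figure D4:**
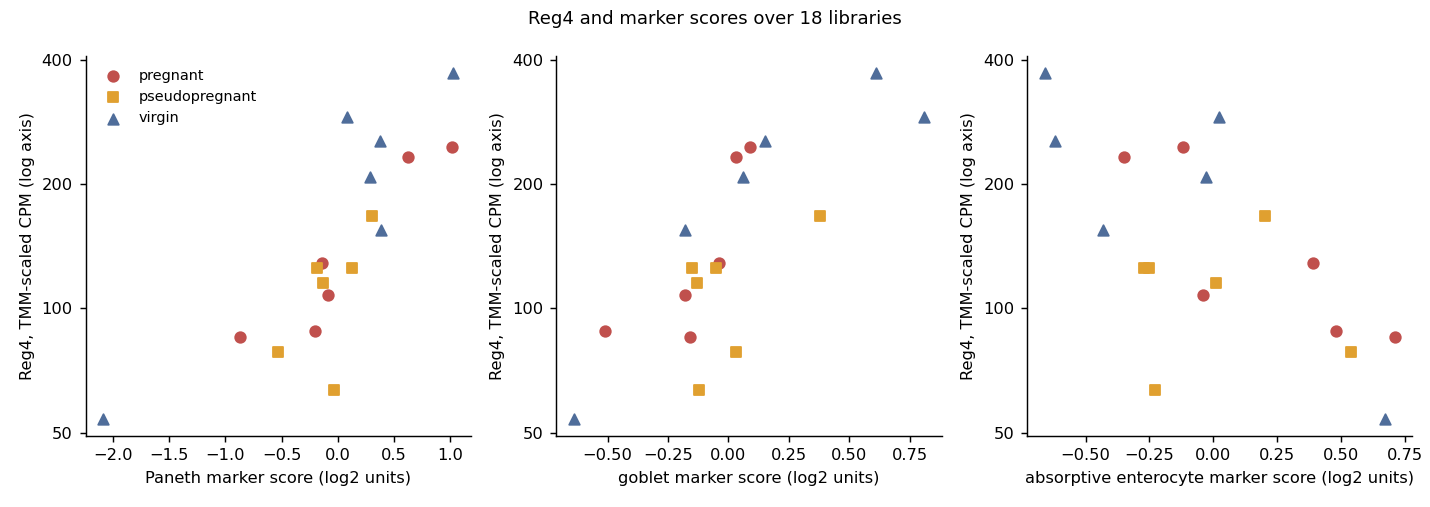
Reg4 (TMM-scaled CPM, log axis) against the scores of Paneth cell, goblet cell and absorptive enterocyte markers (mean centred log2 CPM) in 18 libraries. Reg4 is higher where the Paneth and goblet scores are higher (r of 0.81 and 0.78) and lower where the enterocyte score is higher (r of -0.66), and virgin replicates 2 and 3 hold the highest and lowest Reg4 value.

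Reg1 had its strongest relation with the proliferation score of 18 cell cycle genes, at r of 0.68 (permutation, adjusted p = 0.019), but its rho was 0.50 (permutation, adjusted p = 0.17). Without pregnant replicates 3 and 4 r was 0.55 (permutation, adjusted p = 0.19), which no longer passed. Within groups r was 0.61 in pregnant, 0.69 in pseudopregnant and 0.87 in virgin libraries. The genes most like Reg1 were Ccnd2, which encodes a cyclin of the G1 phase, with r of 0.84, Gtf2ird2 with 0.82 and Nsun5 with 0.81. Those most like Reg3a were Mxra7 with r of 0.85, Ckb, a creatine kinase gene, with 0.84 and Gsta1, a glutathione transferase gene, with 0.83. Those most like Reg3d were Psmd1, a proteasome subunit gene, with r of 0.82, Gramd2 with 0.73 and Scfd2 with 0.70. None of the 6 members had an adjusted p under 0.05 with the score of interferon and MHC class II genes, where r ran from -0.43 to 0.31.

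**Figure D5:**
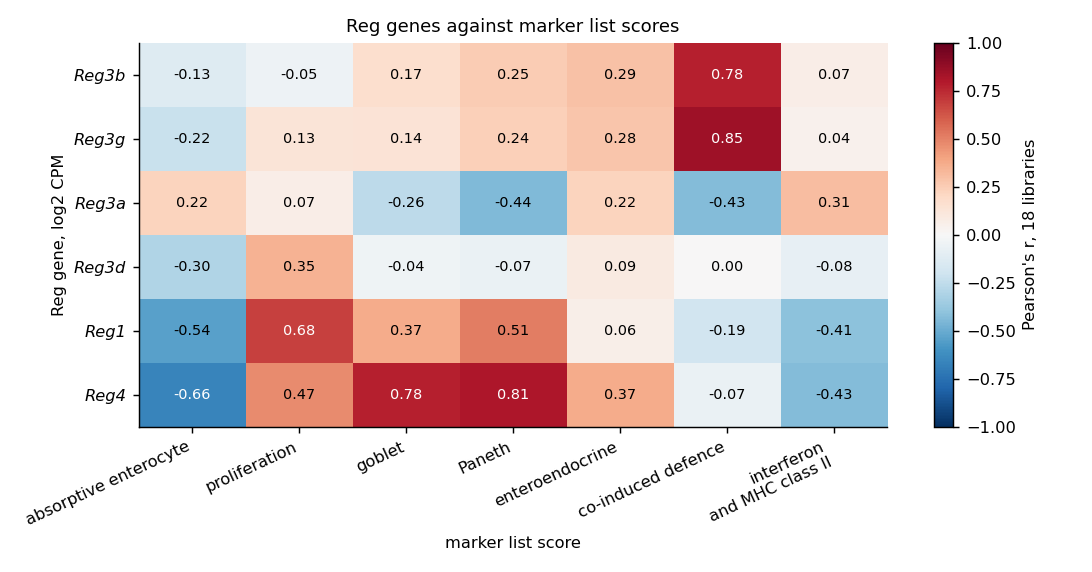
Pearson's r over 18 libraries between the log2 CPM of each Reg gene (rows) and 7 marker list scores (columns), with red for positive and blue for negative values. Reg3b and Reg3g are highest with co-induced defence genes (0.78 and 0.85), Reg4 with Paneth and goblet markers (0.81 and 0.78) and Reg1 with proliferation genes (0.68).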

How the data were processed

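The deposited values are raw counts of reads for each Ensembl gene, with a table for every library, and were used unchanged. Per the labels' protocols, RNeasy Plus Micro kits yielded the RNA, and poly(A)-selected libraries were prepared with NEBNext Ultra II Directional reagents. GRCm38, HISAT2 2.0.4 and featureCounts, with Subread 2.0.0, are named in the submitters' processing notes. The strand setting of featureCounts is not given in the sources used here. Reads may thus be shared by overlapping genes on opposite strands. GENCODE M21 gave symbols for 47310 of 47729 genes.

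Titles gave the group and the replicate number. The members, the gene lists and the tests were chosen with earlier results of these data known. The edgeR function filterByExpr left 14675 genes. After TMM scaling, edgeR 4.0.16 in R 4.3.3 fitted 1 mean per group to all 18 libraries (quasi-likelihood, legacy = FALSE). Contrasts were two-sided, adjusted over all genes by Benjamini-Hochberg, with a threshold of 0.05. Correlations used log2 CPM with a prior count of 2 and 100000 permutations. Named genes were the members, Reg2, the 3 genes most like each member with a mean CPM of at least 1, up to 4 genes of smallest p per list described, and 7 receptor and signalling genes. Saa1, Fut2, Duox2 and Socs3 in pseudopregnant replicate 4, and the pancreatic genes, were named after their values were seen. Alternatives were DESeq2 1.42.0, limma-voom (limma 3.58.1), other scalings and filters, a replicate block and leaving out each library. Results without pseudopregnant replicate 4 in lists and correlations were added after seeing the data. No library was a duplicate of another of its group (chi-square per degree of freedom between replicates at least 36.2), and libraries of different groups were not compared in this way. Promoter sequences came from RefSeq (GRCm38.p6), where all 6 members and Reg2 were found. The edgeR fit was tested on simulated counts.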

Additional observations from a re-analysis of the deposited data

Results flagged for a closer look

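Of 18 sets of 6 libraries tested (6 genes in 3 groups), 1 held a library far from the others. Reg3a in pseudopregnant replicate 6 was 294 CPM, and its gap to the next pseudopregnant library, 174 CPM, was 0.68 of the range of the group, above the 95% critical value of Dixon’s test for 6 samples. Chance flags about 1 in 20 such sets. Reg3d was also highest of all libraries there, at 1.24 CPM. Reg3b was 7630 CPM and Reg3g 2720 CPM in the same library, both inside the range of the other pseudopregnant libraries. The cause was not tested.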

How the results depend on the processing

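No Reg gene passed an adjusted p of 0.05 under any setting, in 177 values under other scalings, filters and tools and in 216 values with 1 library left out. For all genes, the count past the threshold for pregnant over virgin libraries was 5 with DESeq2 and 1 with the replicate block, against 0, and it was 0 under every other setting and in every other comparison. Of 18 pairs of same-numbered libraries in different groups, 13 deviated together (r above 0.1 over 8443 genes; range -0.64 to 0.84), and in 11 of 36 comparisons with another group a library correlated best with its own number. The labels do not say what a number stands for and not every pair deviated together, so the numbers were not taken to pair the libraries. With the block, the counts past the threshold were 1, 0 and 0 in pregnant over virgin, pseudopregnant over virgin and pregnant over pseudopregnant libraries. At an unadjusted p under 0.05 the block called 979, 1988 and 618 genes, against 540, 1375 and 345 without it. Without pseudopregnant replicate 4 the unblocked numbers were 635 for pseudopregnant over virgin and 120 for pregnant over pseudopregnant libraries.

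The sign changed for Reg1 between pregnant and pseudopregnant libraries, at -0.19 with limma-voom and -0.15 with the replicate block against 0.03, and from -0.28 to 0.20 with 1 library left out. Leaving out 1 library also turned values near 0 for Reg3g in pregnant over virgin libraries (-0.15 to 0.13), Reg3d in pseudopregnant over virgin libraries (-0.15 to 0.13) and Reg3a in pregnant over pseudopregnant libraries (-0.21 to 0.06). The cause was not tested. A filter of CPM of at least 1 in 6 libraries removed Reg3d. Without the 2 libraries farthest from the median, 1 pair of Reg genes (against 2) and 3 relations with marker lists (against 6) kept an adjusted p under 0.05. Depth limits Reg3d and Reg2, with 10 to 37 and 0 to 5 reads per library.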
